A study of Rattus norvegicus with 12 samples.

Results

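The thick ascending limb is the stretch of the loop of Henle that takes up salt from the tubular fluid without water. Its genes were followed here in rat kidney grafts that did or did not carry a deficiency of MRP2. The 8 genes were Slc12a1, Kcnj1, Bsnd, Cldn10, Cldn16, Umod, Egf and Ptger3, of 14217 genes that had a probe set of their own on the array. They were chosen by name, as the genes by which this segment is commonly recognised, and every probe set annotated to one of them alone was taken. This gave 9 probe sets of 31042, because Ptger3 had 2 (1376977_at and 1369187_a_at). The others were 1368548_at for Slc12a1, 1369451_a_at for Kcnj1, 1393209_at for Bsnd, 1372492_at for Cldn10, 1369184_at for Cldn16, 1368333_at for Umod and 1368325_at for Egf. All 9 passed the filter on dim signals, which left 18625 probe sets for the comparison.

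The grafts were kidneys transplanted into wild-type recipients, and renal cortex of male rats was measured on Affymetrix 3′ expression arrays, with 1 array for each of 12 grafts. In 6 grafts the kidney was ABCC2-/-, that is, deficient in the organic anion transporter MRP2 (ABCC2), and in the other 6 it was wild type. Both groups thus shared the transplantation and the wild-type recipient. The sources used here give neither the rat strain, the age and the time after transplantation, nor whether each kidney had a donor of its own, so p-values measure the spread between these samples. Abcc2 itself checked the labels. Its signal was 0.141 ± 0.0594 in ABCC2-/- grafts and 0.899 ± 0.0746 in wild-type grafts (SD, n = 6 each), without overlap, in limma at an adjusted p of 8.35e-06. The position of its probe set relative to the mutation was not examined.

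In the thick ascending limb NKCC2, the protein of Slc12a1, carries sodium, potassium and chloride into the cell, and loop diuretics act on it. Potassium returns to the lumen through ROMK, and chloride leaves on the blood side through channels that need barttin. The resulting voltage drives calcium, magnesium and sodium between the cells through claudin pores. The cells also make uromodulin, the main protein of normal urine, and the precursor of epidermal growth factor, and prostaglandin E signals to them through the EP3 receptor, the product of Ptger3. In cortex only the cortical portion of the segment is sampled, and in bulk tissue fewer cells of the segment and less RNA per cell cannot be told apart.

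No thick ascending limb gene passed the test between genotypes. Of the 9 probe sets, 0 passed an adjusted p of 0.05 in limma with Benjamini-Hochberg adjustment over all tested probe sets, against 4 of all 18625 (0.0215%). At an unadjusted p of 0.05 the count was 1 of 9, Bsnd, against 1486 of all probe sets (7.98%). The ranges of ABCC2-/- and wild-type grafts overlapped in all 9 probe sets, and 81 of all probe sets (0.435%) showed no overlap. With each gene represented by its probe set of highest mean, 5 genes had a log2 difference (ABCC2-/- minus wild type) above 0 and 3 had one below. The median of the 8 was 0.026, against -0.041 over the 10639 tested genes. The summed signal of the 8 genes lay between 119 and 140 in ABCC2-/- grafts and between 125 and 140 in wild-type grafts. Most of that sum was Umod, with means of 55.5 and 54.9, and Egf, with means of 42.3 and 41.6, so it says little of the dimmer genes. The plot of signals by array shows the overlap in each gene.

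**Figure D1:**
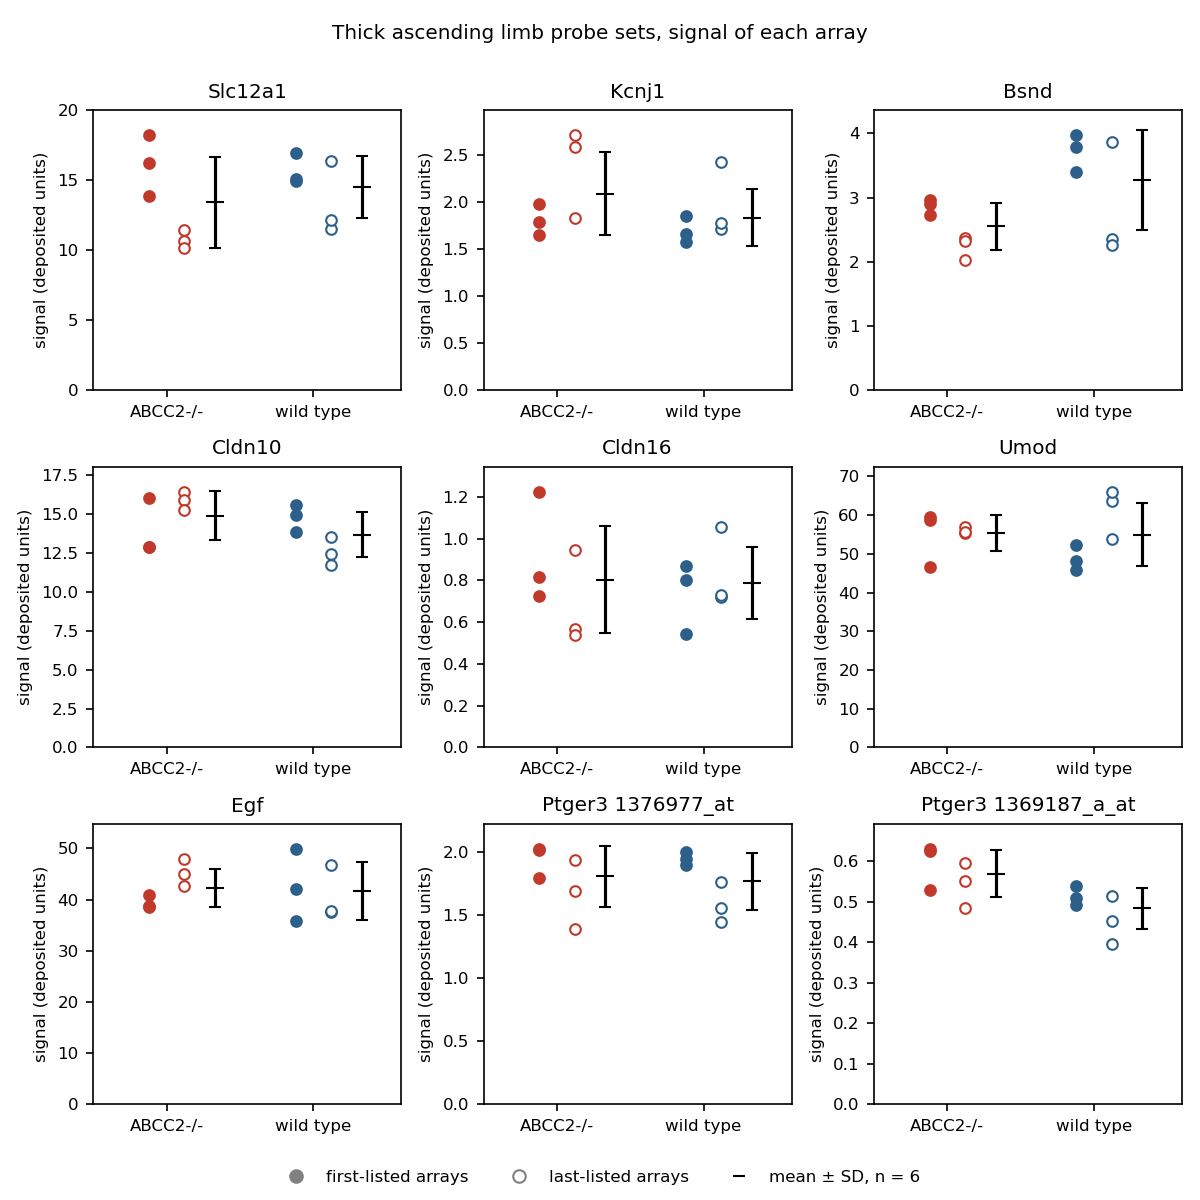
Signal of each array (vertical axis, deposited units on a linear scale from 0) for the 9 probe sets of the 8 genes, with ABCC2-/- grafts at the left and wild-type grafts at the right of each panel. Filled and open points are the 3 arrays of each genotype that the series lists first and last, and bars show the mean ± SD of 6 arrays. The genotypes overlap in every panel, and Bsnd lies below the wild-type mean in 6 of 6 ABCC2-/- grafts.

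The order in which the series lists its arrays bears on several genes and is given first. The 3 arrays of each genotype that the series lists first differed widely from the 3 it lists last: with genotype as a block, 5640 of 18625 probe sets (30.3%) passed an adjusted p of 0.05 between them in limma. The labels give no batch, date or order for this split. The ratio of the 3′ to the 5′ control probe set of Gapdh, an indicator of how complete the labelled RNA was, lay between 1.28 and 1.36 in the 3 last-listed ABCC2-/- arrays (replicates 3, 10 and 14). In the other 9 arrays it lay between 1.64 (wild-type replicate 7) and 1.93 (ABCC2-/- replicate 11). The lowest ratios thus occurred in ABCC2-/- arrays alone. Fits with the ratio as covariate, given below, therefore cannot fully tell the ratio and genotype apart. Within the last-listed arrays every ABCC2-/- graft had a lower ratio than every wild-type graft. There the ratio and genotype cannot be told apart at all. Both genotypes hold 3 arrays of each listing set, and values within each set stand beside the pooled ones below.

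Slc12a1 had a signal between 10.1 and 18.2 with a median of 12.6 in ABCC2-/- grafts, and between 11.5 and 17.0 with a median of 15.0 in wild-type grafts. The mean was 13.4 ± 3.26 in ABCC2-/- grafts and 14.5 ± 2.22 in wild-type grafts (SD, n = 6 each). The log2 difference of -0.13 (SE 0.14) did not pass in limma (adjusted p = 0.752), and the 95% confidence interval of the fold ran from 0.738 to 1.13. The 3 lowest arrays of the cotransporter were ABCC2-/- replicates 14, 10 and 3, at 10.1, 10.6 and 11.4. These are the arrays with the lowest Gapdh ratio, and no wild-type array had one as low. A fit with that ratio as covariate, which cannot fully separate it from genotype, gave a difference of 0.052 (SE 0.13).

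Within the listing sets, the first-listed ABCC2-/- grafts had 13.9, 18.2 and 16.2 for Slc12a1, against 14.9, 17.0 and 15.1 in the first-listed wild-type grafts. The last-listed ABCC2-/- grafts had 11.4, 10.6 and 10.1, against 11.5, 12.1 and 16.4 in the last-listed wild-type grafts. The genotypes thus overlapped in the first set, with a log2 difference of 0.033 (SE 0.096), and just failed to overlap in the second, with -0.30 (SE 0.12, adjusted p = 0.154). The test of the change in difference between the sets, the interaction in limma, gave -0.33 (SE 0.17, adjusted p = 0.324). Over both genotypes Slc12a1 was 1.33-fold lower in the last-listed than in the first-listed arrays (adjusted p = 0.00383).

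Bsnd encodes barttin, the subunit that ClC-K chloride channels need at the basolateral membrane, and is also expressed in distal tubule and intercalated cells. It had the lowest p of the 8 genes. The signal lay between 2.02 and 2.96 with a median of 2.55 in ABCC2-/- grafts, and between 2.25 and 3.97 with a median of 3.59 in wild-type grafts. All 6 ABCC2-/- grafts were below the wild-type mean, but wild-type replicates 8 and 4, at 2.25 and 2.36, lay within the ABCC2-/- range. The mean was 2.55 ± 0.370 in ABCC2-/- grafts and 3.27 ± 0.772 in wild-type grafts (SD, n = 6 each). The log2 difference was -0.33 (SE 0.15, unadjusted p = 0.0424 in limma, adjusted p = 0.614), with a 95% interval of the fold from 0.635 to 0.991. In 5 of 9 other settings of the processing the unadjusted p was not under 0.05, among them the fit with the Gapdh ratio as covariate, at -0.24 (SE 0.16, unadjusted p = 0.170). Leaving out each array in turn gave an unadjusted p between 0.00753 and 0.102, which was not under 0.05 for 7 of the 12 arrays.

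Markers of the other cells that express Bsnd were set beside it. Of 5 tested intercalated cell markers 4 had a negative difference (median -0.18) and 2 an unadjusted p under 0.05 in limma. Over all tested genes the difference was negative in 6238 of 10639, and 7.98% of all probe sets had an unadjusted p under 0.05. Slc4a1, the anion exchanger of acid-secreting cells, averaged 0.867 ± 0.153 in ABCC2-/- grafts and 1.14 ± 0.108 in wild-type grafts (SD, n = 6 each), a log2 difference of -0.41 (SE 0.12, adjusted p = 0.606). Slc26a4, which encodes pendrin of bicarbonate-secreting cells, averaged 3.93 ± 0.710 in ABCC2-/- grafts and 5.26 ± 0.868 in wild-type grafts (SD, n = 6 each), a difference of -0.42 (SE 0.13, adjusted p = 0.606). Atp6v1g3, a proton pump subunit, was the 1 marker with a positive difference, 0.061 (SE 0.13). The summed signal of the 5 lay between 25.6 and 36.4 in ABCC2-/- grafts and between 26.9 and 36.5 in wild-type grafts, and most of it was Atp6v1g3, with a mean of 22.1 in ABCC2-/- grafts and 20.9 in wild-type grafts. Of 3 tested distal convoluted tubule markers 2 had a negative difference (median -0.059). Slc12a3, the thiazide-sensitive cotransporter gene, had -0.40 (SE 0.17, adjusted p = 0.612) and Calb1, which encodes a calcium-binding protein, 0.10 (SE 0.10). The part of these cells in the Bsnd difference was not tested.

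Within the first-listed arrays, where the share of all probe sets without overlap was not counted, Bsnd did not overlap. It had 2.96, 2.90 and 2.73 in ABCC2-/- grafts against 3.398, 3.97 and 3.78 in wild-type grafts. The log2 difference there was -0.37 (SE 0.084, adjusted p = 0.202 in limma), where 4 of all probe sets (0.0215%) passed. In the last-listed arrays it was 2.37, 2.33 and 2.02 in ABCC2-/- grafts against 2.36, 3.87 and 2.25 in wild-type grafts, with a difference of -0.30 (SE 0.18). The sign was the same in both sets, and the interaction was 0.078 (SE 0.22, adjusted p = 0.890). With the listing set as a block the adjusted p of Bsnd was 0.125, in a fit in which 112 of all probe sets (0.601%) passed. Over both genotypes Bsnd was 1.32-fold lower in the last-listed arrays (adjusted p = 0.0118).

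Kcnj1 encodes the potassium channel ROMK, which also serves potassium secretion in the collecting duct. Its signal lay between 1.65 and 2.71 with a median of 1.91 in ABCC2-/- grafts, and between 1.58 and 2.43 with a median of 1.75 in wild-type grafts. The ABCC2-/- range began slightly higher, at 1.65 against 1.58, and also ended higher. Replicates 3 and 10, at 2.71 and 2.58, lay above the wild-type range, and the other 4 ABCC2-/- arrays lay within it. The log2 difference was 0.18 (SE 0.14, adjusted p = 0.671 in limma), and 0.010 (SE 0.13) when the Gapdh ratio was a covariate. Within the listing sets it was 0.089 (SE 0.10) in the first-listed and 0.26 (SE 0.17) in the last-listed arrays. Kcnj1 thus differed from Slc12a1 in sign, and neither passed.

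**Figure D2:**
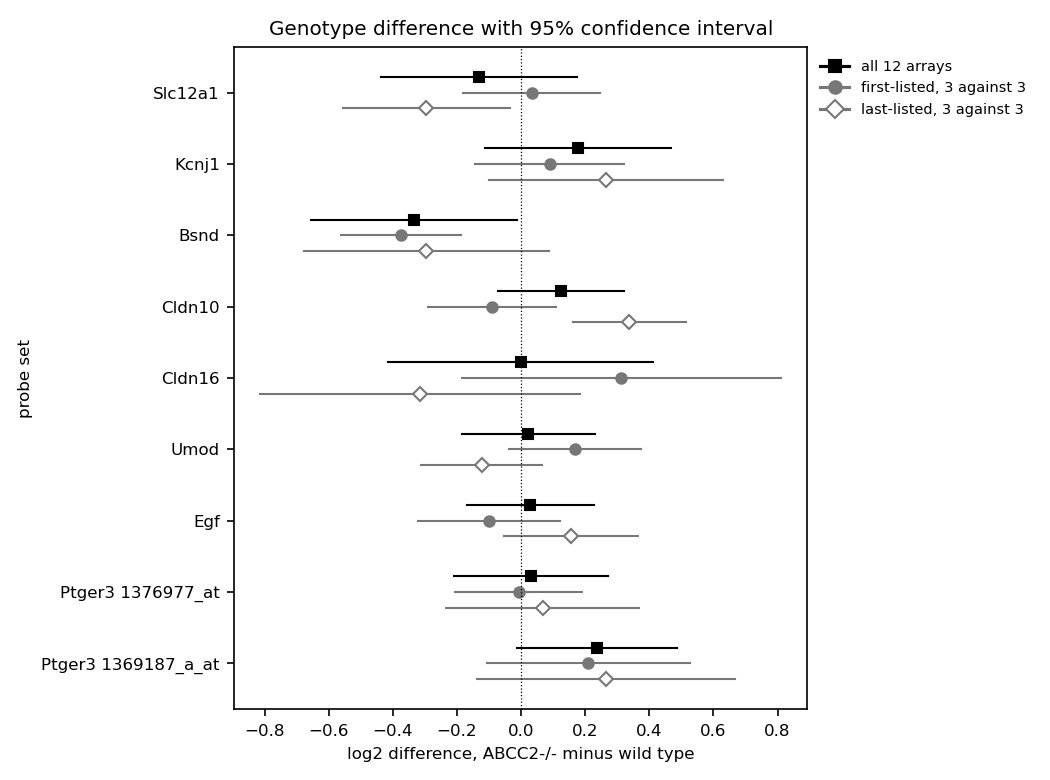
Log2 difference, ABCC2-/- minus wild type (horizontal axis), with its 95% confidence interval for each probe set (vertical axis), over all 12 arrays (squares), the first-listed 3 against 3 (circles) and the last-listed 3 against 3 (diamonds). The interval over all arrays leaves out 0 for Bsnd alone, at an unadjusted p of 0.0424, and the listing sets have opposite signs for Slc12a1, Cldn10, Cldn16, Umod, Egf and Ptger3 1376977_at.

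Cldn10 and Cldn16 encode claudins of the paracellular route, of which claudin 10 is selective for sodium in this segment and claudin 16 is needed for calcium and magnesium. A further isoform of claudin 10 is made in the proximal tubule, and the sources used here do not say which isoforms the probe set reads. Cldn10 had a signal between 12.9 and 16.4 with a median of 15.6 in ABCC2-/- grafts, and between 11.7 and 15.6 with a median of 13.7 in wild-type grafts. The log2 difference was 0.12 (SE 0.092, adjusted p = 0.664 in limma), with a 95% interval of the fold from 0.952 to 1.25.

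For Cldn10 the values differed by listing set. The last-listed ABCC2-/- grafts had 16.4, 15.9 and 15.2, all above the 11.7, 12.4 and 13.5 of the last-listed wild-type grafts. This difference of 0.34 (SE 0.081) passed within that set (adjusted p = 0.0307 in limma). There 1190 of 18625 probe sets (6.39%) passed, and Cldn10 was the 1 of 9 members to do so. In that set the Gapdh ratio lay between 1.28 and 1.36 in ABCC2-/- grafts and between 1.64 and 1.88 in wild-type grafts. Ratio and genotype therefore cannot be told apart in it. The first-listed ABCC2-/- grafts had 12.9, 16.0 and 12.9, against 13.9, 15.6 and 14.9 in the first-listed wild-type grafts, a difference of -0.090 (SE 0.090). The interaction was 0.43 (SE 0.12, adjusted p = 0.0794) and did not pass. It passed for 473 of all probe sets (2.54%) and for 0 of the 9 members. When the Gapdh ratio was a covariate the difference over all arrays was 0.033 (SE 0.089).

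Cldn16 had a signal between 0.539 and 1.22 with a median of 0.772 in ABCC2-/- grafts, and between 0.542 and 1.06 with a median of 0.767 in wild-type grafts. The mean was 0.803 ± 0.256 in ABCC2-/- grafts and 0.787 ± 0.171 in wild-type grafts (SD, n = 6 each). The log2 difference was -0.0012 (SE 0.19, adjusted p = 0.999 in limma). It pooled differences of opposite sign, 0.31 (SE 0.22) in the first-listed and -0.32 (SE 0.23) in the last-listed arrays. Neither passed, and the interaction was -0.63 (SE 0.36, adjusted p = 0.374). Its spread within genotypes, 0.39 on the log2 scale, was the widest of the 9 probe sets, where the median of all tested probe sets was 0.24. The 95% interval of the fold ran from 0.751 to 1.33.

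Umod, the uromodulin gene, had a signal between 46.6 and 59.6 with a median of 56.3 in ABCC2-/- grafts, and between 45.8 and 65.8 with a median of 53.1 in wild-type grafts. The mean was 55.5 ± 4.66 in ABCC2-/- grafts and 54.9 ± 8.19 in wild-type grafts (SD, n = 6 each). The log2 difference was 0.023 (SE 0.098, adjusted p = 0.942 in limma), with a 95% interval of the fold from 0.880 to 1.17. The ABCC2-/- range lay wholly within the wild-type range, and 5 of 6 ABCC2-/- grafts were above the wild-type mean. Within the listing sets the difference was 0.17 (SE 0.092) in the first-listed and -0.12 (SE 0.087) in the last-listed arrays.

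Egf, whose precursor is made in the thick ascending limb and the distal convoluted tubule, had a signal between 38.5 and 48.0 with a median of 41.7 in ABCC2-/- grafts. In wild-type grafts it lay between 35.8 and 49.8 with a median of 39.98. The log2 difference was 0.029 (SE 0.093, adjusted p = 0.921 in limma), and the 95% interval of the fold ran from 0.890 to 1.17. Here too the ABCC2-/- range lay within the wild-type range. The differences by listing set were -0.099 (SE 0.099) in the first-listed and 0.16 (SE 0.096) in the last-listed arrays.

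Ptger3, the gene of the EP3 receptor, which restrains cyclic AMP in this segment, was read by the probe sets 1376977_at and 1369187_a_at. The signal of 1376977_at lay between 1.39 and 2.02 with a median of 1.86 in ABCC2-/- grafts and between 1.45 and 2.003 with a median of 1.83 in wild-type grafts. Its log2 difference was 0.031 (SE 0.11, adjusted p = 0.930 in limma), with -0.0068 (SE 0.089) in the first-listed and 0.068 (SE 0.14) in the last-listed arrays. The signal of 1369187_a_at lay between 0.485 and 0.628 with a median of 0.573 in ABCC2-/- grafts and between 0.395 and 0.537 with a median of 0.500 in wild-type grafts. In it 4 of 6 ABCC2-/- grafts were above every wild-type graft, and the log2 difference was 0.24 (SE 0.12, unadjusted p = 0.0605, adjusted p = 0.627). In 5 of 9 other settings of the processing the unadjusted p in limma was under 0.05, and in 4 it was not. The fit with the Gapdh ratio as covariate was among the 5, at 0.30 (SE 0.13, unadjusted p = 0.0355). The lowest adjusted p in the 9 settings was 0.244. The difference in 1369187_a_at had the same sign in both listing sets, at 0.21 (SE 0.14) and 0.26 (SE 0.18). The probe sets thus gave differences of unlike size, and neither passed.

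Between the listing sets 3 of the 9 probe sets passed: Slc12a1, Bsnd and Ptger3 1376977_at, which was 1.20-fold lower in the last-listed arrays (adjusted p = 0.0284). All 3 were lower there, where 3542 of all probe sets (19.0%) were lower and passed. A share of 3 in 9 is close to the 30.3% of all probe sets that passed in either direction. Kcnj1 and Umod had values of 0.29 (SE 0.11, adjusted p = 0.0582) and 0.18 (SE 0.076, adjusted p = 0.0848), with the opposite sign. For Slc12a1 the difference between listing sets had a larger size than that between genotypes, at -0.41 (SE 0.095) against -0.13 (SE 0.095), both from the fit with genotype and listing set. The Gapdh ratio was not fitted beside the listing set, so its part in these differences was not tested.

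**Figure D3:**
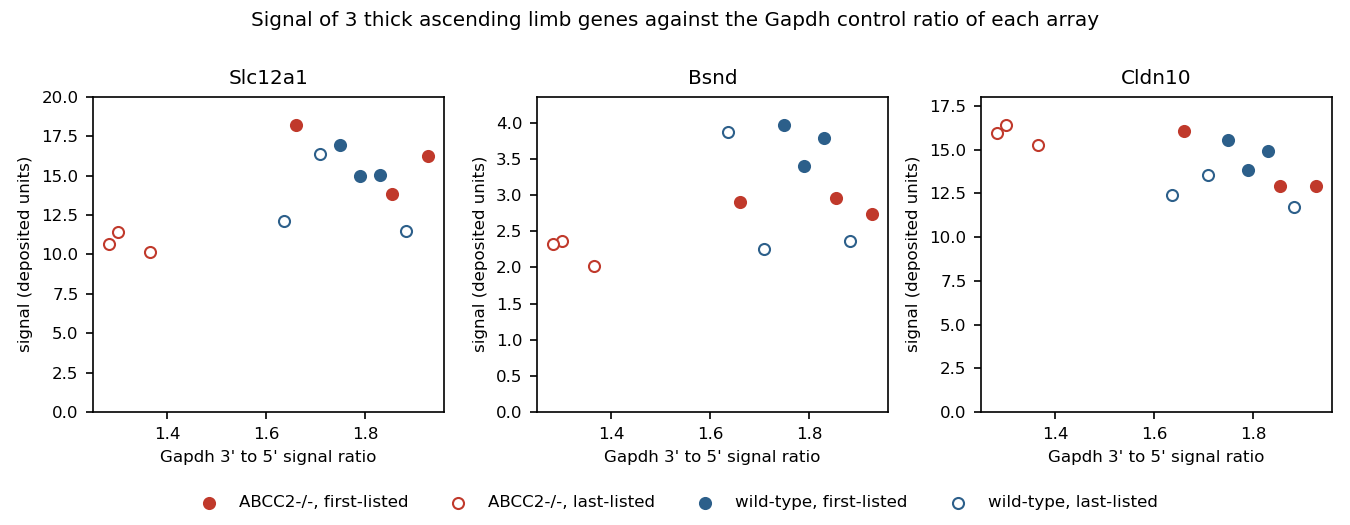
Signal of Slc12a1, Bsnd and Cldn10 (vertical axes, deposited units from 0) against the ratio of the 3′ to the 5′ Gapdh control signal (horizontal axes) for each of 12 arrays, by genotype and listing set. The 3 last-listed ABCC2-/- arrays stand apart at ratios between 1.28 and 1.36, where Slc12a1 lies between 10.1 and 11.4.

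How the genes varied together from graft to graft was compared in pairs. After removal of the mean of each genotype in each listing set, the 28 pairs of genes had Pearson correlations between -0.66 and 0.81 over 12 arrays, with a median of -0.0050. No pair passed Benjamini-Hochberg adjustment over the 28 pairs in an exact permutation test within genotype and listing set (1296 permutations, two-sided, lowest adjusted p = 0.194). Of the pairs 6 had an unadjusted p under 0.05. No share over pairs of other genes stands beside that count, and pairs that share a gene are not independent. The highest correlation was that of Slc12a1 with Cldn10, with r = 0.81 (exact permutation p = 0.00694) and Spearman's rho = 0.81 (exact permutation p adjusted over the pairs = 0.137). Without the 2 arrays farthest from the median of Slc12a1 it was 0.71. With the genotype means alone removed the same pair had r = 0.13. The lowest was Bsnd with Umod, with r = -0.66 (exact permutation p = 0.0154), rho = -0.69 (exact permutation p adjusted over the pairs = 0.137) and -0.46 without the 2 arrays farthest from the median of Bsnd.

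Among all tested genes those whose signal followed Slc12a1 most closely were Fam171a1, Slc5a6, Fat1, Fkbp9 and Nadsyn1. Their Pearson correlations with it, computed on deviations from the genotype means over 12 arrays, lay between 0.95 and 0.97, where the median over 10638 genes was 0.22. The highest among the other thick ascending limb genes was Ptger3 at 0.78, which ranked 822 of 10638. With the mean of each genotype in each listing set removed, Ptger3 had 0.65, and Cldn10 was the highest of these genes at 0.81. For Umod the 5 closest were Abhd11-as1, Slc3a1, LOC100911992, Cyb561d2 and Kif5c, with correlations between 0.86 and 0.89 and a median over all genes of -0.18. These are descriptions of likeness over arrays that share the 2 listing sets. Within the first-listed 6 arrays the 5 genes nearest Slc12a1 had correlations between 0.81 and 0.98, and within the last-listed 6 between 0.84 and 0.93. The 5 were picked on these same 12 arrays, so high values within the sets follow in part from that choice.

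Genes that work with these 8 were taken as 6 lists of 61 genes by role, of which 47 were tested, 5 were below the filter and 9 had no probe set annotated to them alone. None of the 47 passed (lowest adjusted p = 0.606 in limma), against 0.0215% of all probe sets. At an unadjusted p of 0.05 the count was 7 of 47 (14.9%), against 7.98% of all probe sets. The difference was above 0 in 17 and below 0 in 30 of the 47, and their median was -0.052, against -0.041 for all genes. Over all 10639 tested genes the difference was above 0 in 4401 and below 0 in 6238, so negative values were the more common ones in any list.

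Among 6 tested salt transport partners the log2 difference was above 0 in 2 and below 0 in 4 (median -0.20). The ClC-K channel genes were among those without a probe set of their own. Slc4a2, an anion exchanger, averaged 2.03 ± 0.419 in ABCC2-/- grafts and 2.52 ± 0.304 in wild-type grafts (SD, n = 6 each), a difference of -0.33 (SE 0.13). Slc4a7, a sodium bicarbonate cotransporter, had -0.55 (SE 0.21). Of 10 genes that regulate NKCC2 8 had a negative difference (median -0.10). Cab39, which activates the kinases that switch the cotransporter on, averaged 3.56 ± 0.777 in ABCC2-/- grafts and 4.45 ± 0.541 in wild-type grafts (SD, n = 6 each), a difference of -0.34 (SE 0.13). Mal, an apical sorting protein, had -0.19 (SE 0.10). All 4 had an adjusted p of 0.606 or 0.628.

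Of 6 genes of calcium sensing and the paracellular route 4 had a negative difference (median -0.13). The parathyroid hormone receptor gene Pth1r had -0.31 (SE 0.12) and the junction gene Tjp1 -0.18 (SE 0.11). Casr, the calcium-sensing receptor gene, known to restrain transport in this segment, averaged 2.27 ± 0.562 in ABCC2-/- grafts and 2.47 ± 0.322 in wild-type grafts (SD, n = 6 each), a difference of -0.14 (SE 0.14, adjusted p = 0.723 in limma). Of 8 hormone and cyclic AMP genes 4 were positive and 4 negative (median 0.010). Avpr2, the vasopressin receptor gene, lay between 0.649 and 0.794 in ABCC2-/- grafts and between 0.386 and 0.728 in wild-type grafts, with a log2 difference of 0.44 (SE 0.16). Cyp4a8, of a fatty acid hydroxylase family whose products inhibit salt uptake, had 0.25 (SE 0.088). Both had an adjusted p of 0.606.

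Of 6 genes of uromodulin handling and epidermal growth factor signalling all 6 had a negative difference (median -0.097) and 0 had an unadjusted p under 0.05. Adam17, a sheddase of growth factor precursors, had -0.21 (SE 0.11) and the receptor gene Erbb2 -0.25 (SE 0.13). Of 11 transcription factors and other genes of the segment 7 were positive and 4 negative (median 0.087). Ckb, the brain-type creatine kinase gene, lay between 0.573 and 2.05 in ABCC2-/- grafts and between 1.34 and 3.10 in wild-type grafts, with -0.72 (SE 0.32). Tmem72 had 0.26 (SE 0.14). The plot of gene lists shows each list spread on both sides of 0 except that of uromodulin handling.

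**Figure D4:**
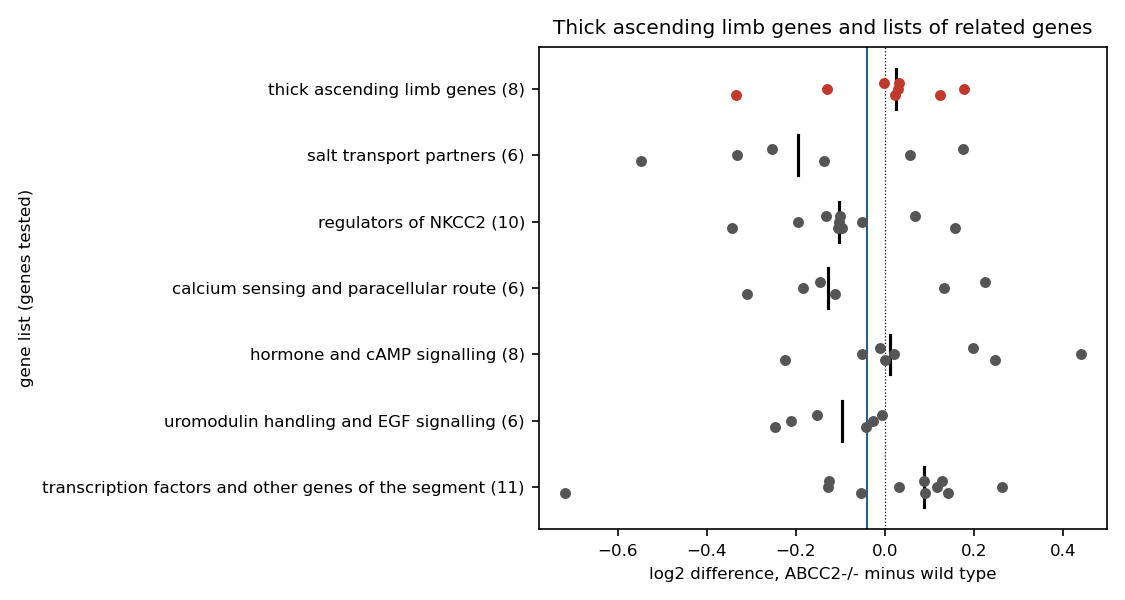
Log2 difference, ABCC2-/- minus wild type (horizontal axis), of each tested gene (points) in the 8 thick ascending limb genes (top) and 6 lists of related genes (vertical axis, with the number tested). Black bars are list medians and the blue line is the median of all tested genes, -0.041; no gene shown passed an adjusted p of 0.05.

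Other cell types of the kidney were followed by their markers. In 7 lists, of proximal tubule, thin limb, distal convoluted tubule, principal cells, intercalated cells and podocytes, 37 of 42 markers were tested. None of them passed. At an unadjusted p of 0.05 in limma the count was 6 of 37 (16.2%), against 7.98% of all probe sets. The difference was above 0 in 12 and below 0 in 25, and over all tested genes it was above 0 in 4401 and below 0 in 6238. The summed signals of these lists overlapped between genotypes.

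The 6 were Slc4a1, Slc26a4 and Slc12a3, given above, and Slc5a2, Cubn and Nphs1. Of 8 markers of the first proximal segments 6 had a negative difference (median -0.084). Slc5a2, the glucose cotransporter gene SGLT2, averaged 7.42 ± 1.15 in ABCC2-/- grafts and 9.63 ± 1.30 in wild-type grafts (SD, n = 6 each), a log2 difference of -0.38 (SE 0.11, adjusted p = 0.606). Cubn, the gene of the endocytic receptor cubilin, had -0.22 (SE 0.10, adjusted p = 0.623). All 4 podocyte markers had a negative difference (median -0.11). Nphs1, the nephrin gene, had -0.24 (SE 0.11, adjusted p = 0.614) and Podxl, the podocalyxin gene, -0.15 (SE 0.12).

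The other 3 lists held no marker with an unadjusted p under 0.05. Of 5 tested markers of the last proximal segment, which borders the outer medulla, 3 had a positive difference (median 0.027). Their summed signal, with that of Slc5a1, which was below the filter, lay between 110 and 164 in ABCC2-/- grafts and between 117 and 152 in wild-type grafts. The lowest p were those of Slc6a18 at -0.33 (SE 0.24) and Slc3a1 at 0.086 (SE 0.081). Of 5 thin limb and inner medulla markers 3 had a positive difference (median 0.083). The summed signal of the 5 lay between 26.8 and 36.5 in ABCC2-/- grafts and between 29.6 and 35.6 in wild-type grafts. Most of it was Aqp1, with a mean of 25.8 in ABCC2-/- grafts and 26.6 in wild-type grafts. The sum thus says little of the dimmer markers, such as Slc14a2, with means of 0.205 in ABCC2-/- grafts and 0.192 in wild-type grafts. Which cells the Aqp1 signal came from was not tested, so the sum was not read as a level of thin limb or medulla. Here Slc5a3 had -0.21 (SE 0.14) and S100a4 0.16 (SE 0.13). Of 7 principal cell markers 5 had a negative difference (median -0.072), and Aqp4 had 0.20 (SE 0.11) and Fxyd4 0.25 (SE 0.16).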

How the data were processed

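Total RNA of renal cortex was labelled with biotin, per the labels' protocols. The authors deposited probe set intensity values on a linear scale, 1 column per array, made with MAS5 and GCOS per the submitters' processing notes. Versions, settings and the constant that scaled each array are not given in the sources used here, and 3.56% of values stood at a minimum of 0.01. All values below the pooled 20th percentile (0.0694), taken with the control probe sets included, were set to that percentile before log2 transformation. The 57 control probe sets were then left out. The lowest signal of any member was 0.395. The test covered probe sets whose mean log2 signal reached the 40th percentile of such means. It was done with limma 3.58.1 in R 4.3.3 (lmFit, eBayes with trend), on graft genotype alone, with p-values adjusted after Benjamini and Hochberg. No further normalization was applied. The number of arrays limits the precision. Genes were named through the platform annotation, updated by Entrez number to GRCr8 symbols for 20764 of 20832 probe sets with 1 symbol.

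A gene was represented by its probe set of highest mean. All members were described, and of each further list the genes that passed or else the 2 of lowest p. Casr was named after its values were seen. The members and lists were chosen with earlier results of these data known. The comparisons within and between the first-listed and last-listed arrays were added after seeing the data. The fit was tested on simulated data. The floor, filter, normalization, variance model, weights, covariates and arrays were varied.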

Additional observations from a re-analysis of the deposited data

Results flagged for a closer look

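In 18 sets of 6 arrays (9 probe sets in 2 genotypes) 2 arrays stood apart from the others by Dixon's criterion, which chance meets in about 1 of 20 sets. Umod in ABCC2-/- replicate 5 was 46.6, below the 55.3 to 59.6 of the other 5 ABCC2-/- grafts. Without that array the log2 difference of Umod was 0.072. Kcnj1 in wild-type replicate 7 was 2.43, above the 1.58 to 1.85 of the other 5 wild-type grafts. Without that array the log2 difference of Kcnj1 was 0.26. Neither gene passed with or without these arrays.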

How the results depend on the processing

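No paired analysis was possible because the genotypes share 1 replicate number. In 9 other settings of floor, filter, normalization, variance model, weights and covariates, and in 12 fits that left out 1 array, 0 of the 9 member probe sets passed. In the last-listed arrays alone, chosen after seeing the data, 1 passed (Cldn10). The count over all probe sets was between 3 and 5 with 1 array left out, 0 with values under 1 set to 1, 112 with the listing set as a block and 1190 in the last-listed arrays alone. The cause was not tested. The median log2 difference of the 8 genes ran from -0.0021 to 0.055 with 1 array left out and was -0.027 after quantile normalization. Signs of log2 differences that did not pass turned as follows. Adjusting for the Gapdh ratio gave 0.052 for Slc12a1, 0.14 for Cldn16 and -0.018 for Egf. The first-listed arrays alone gave 0.033 for Slc12a1, -0.090 for Cldn10, 0.31 for Cldn16, -0.099 for Egf and -0.0068 for Ptger3 1376977_at, and the last-listed alone gave -0.12 for Umod. Quantile normalization gave 0.0043 for Cldn16, -0.086 for Umod and -0.059 for Egf. Cldn16 was also 0.035 with values under 1 set to 1, 0.028 with arrays centred on their medians and 0.012 with array weights. With 1 array left out the value ran from -0.13 to 0.10 for Cldn16, from -0.027 to 0.077 for Umod, from -0.013 to 0.083 for Egf and from -0.025 to 0.10 for Ptger3 1376977_at. In the same fits Bsnd (-0.43 to -0.27), Kcnj1 (0.097 to 0.26), Cldn10 (0.081 to 0.16), Slc12a1 (-0.23 to -0.057) and Ptger3 1369187_a_at (0.18 to 0.28) did not change sign. All values of Ptger3 1369187_a_at lie under 1, so it gave no difference with values under 1 set to 1. Detection calls were not used here, so how far the dimmest members, Cldn16 and Ptger3 1369187_a_at, stood above background was not measured.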
